A study of Mus musculus with 18 samples.

Results

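The 9 desmosome genes Dsg2, Dsg3, Dsc2, Dsc3, Jup, Pkp1, Pkp2, Pkp3 and Dsp were described in whole urinary bladder of mice injured with cyclophosphamide and given either normal chow or a diet rich in vitamin A. They were taken by symbol from the deposited gene count table, where they are 9 of 46333 features that carry a gene symbol, and all 9 passed the filter on low counts. The 18 RNA sequencing libraries came from wild type female BALBc mice of 8 weeks, with 3 libraries in each of 6 groups. Mice received an intraperitoneal injection of cyclophosphamide at 150 mg per kg body weight, or of saline. The enriched diet, given from the week before the injection, held 566081 UI retinyl acetate per kg, although the series' own description names retinyl palmitate. The 6 groups were saline at day 1, cyclophosphamide at day 1 and cyclophosphamide at day 3, each on the normal and on the vitamin A diet. Saline bladders were taken at day 1 only, so a comparison of day 3 with saline also differs in the day after injection. The labels number the libraries of a group as biological replicates without naming the mouse, and mice were housed in groups of 3 without a record of the cage, so p-values measure the spread between these libraries.

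Desmosomes are buttons of adhesion that tie the keratin filaments of neighbouring epithelial cells together. Desmogleins (Dsg) and desmocollins (Dsc) are cadherins that span the membrane and bind each other between cells. Plakoglobin (Jup) and the plakophilins (Pkp) hold the cadherin tails in a plaque, and desmoplakin (Dsp) links that plaque to keratin. Dsg2, Dsc2 and Pkp2 are the widespread forms and are also found in heart muscle, while Dsg3, Dsc3 and Pkp1 are best known from the basal and stratified layers of squamous epithelia. The urothelium that lines the bladder is a stratified epithelium of basal, intermediate and umbrella cells, and cyclophosphamide harms it through a toxic metabolite that collects in urine.

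Libraries held 19554132 to 34598952 counts, of which the 9 genes took 561 to 1289 CPM (CPM are counts scaled to the total of each library over genes with a symbol). Umbrella cell markers (uroplakins and Krt20) and smooth muscle markers were detected in every library, with sums of 2169 to 7218 CPM and 9971 to 31350 CPM. Replicate 2 of the vitamin A group at day 3 stood apart: 14.5% of its counts lay on genes shorter than 1 kb against 7.38% to 11.03% in the other 17 libraries, and its mean correlation with its own group was 0.967 against 0.973 to 0.990. In that library Dsg2 stood at 28.7%, Pkp1 at 26.1% and Dsp at 41.0% of the mean of the other 2 libraries of the group, while Pkp3 stood at 79.9% and Pkp2 at 113%. Values of the 9 genes that rest on this group are given with and without that library; without it 19978 genes passed the filter.

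Per transcript length, Jup was the most abundant member and the squamous-type cadherins Dsg3 and Dsc3 the least. In the saline bladders on the normal diet the mean FPKM (fragments scaled to gene length and library size, as deposited) was 46.8 ± 2.43 (SD, n = 3) for Jup, 30.2 ± 4.66 for Dsp, 26.3 ± 3.34 for Dsg2, 17.9 ± 2.56 for Pkp3, 10.7 ± 0.250 for Pkp2, 5.67 ± 0.158 for Dsc2 and 3.80 ± 0.286 for Pkp1. The ranges of Dsp and Dsg2 overlapped, and no other neighbours in that order did. Dsg3 was at 0.0118 ± 0.0205 FPKM, from 3 counts in 1 library, and Dsc3 had 0 counts in all 3 libraries. On the vitamin A diet Dsg2 (28.7 ± 4.45) stood above Dsp (22.3 ± 1.90) in the saline bladders, with no overlap. Jup was the highest and Dsc3 the lowest of the 9 in all 6 groups, while Dsp overlapped with Dsg2 at day 1 on the normal diet and at day 3 on either diet. Without replicate 2 the vitamin A group at day 3 kept Jup first and Dsc3 last, and Dsp still overlapped with Dsg2. Means were 62.3 FPKM for Jup, 35.3 for Dsp, 33.5 for Dsg2 and 0.157 for Dsc3. Pkp1 (6.31) then stood above Dsc2 (5.85), against 4.81 and 5.07 with that library, and Dsg3 no longer overlapped with Dsc3. Dsg2 made up 99.96% of the summed FPKM of Dsg2 and Dsg3 after saline on the normal diet, and Pkp3 made up 55.1% of that of the 3 plakophilins.

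The first question was which desmosome genes changed in the injured bladder. At day 1 on the normal diet 1 of the 9 genes rose (Dsg3) against 7.26% of all 19323 genes tested, and on the vitamin A diet 4 rose (Dsg3, Dsp, Jup and Pkp3) against 10.2%. At day 3 on the normal diet 4 rose over saline (Dsg3, Dsc3, Pkp1 and Pkp3) against 6.74%, and on the vitamin A diet 2 rose (Dsg3 and Pkp1) against 4.32%. With replicate 2 of that last group left out 3 rose (Dsg3, Dsp and Pkp1) against 4.515%, with a median log2 change of the 9 genes of 0.57. Rose here means an adjusted p under 0.05 in edgeR's quasi-likelihood test, with Benjamini-Hochberg adjustment over all genes tested. No member fell in these 4 comparisons, against 4.49%, 9.05%, 3.30% and 1.67% of all genes in the same order, so 0 of 9 was near the background. Without replicate 2 of the last group 0 fell too, against 1.99%. The median log2 change of the 9 genes was 0.47 and 0.61 at day 1 (normal, vitamin A) and 0.32 and 0.39 at day 3, beside medians of all genes between -0.01 and 0.01, and is the same with Dsc3 at its lower bound where the saline group had 0 counts. Each set of 2 comparisons within a diet shares its saline libraries.

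**Figure D1:**
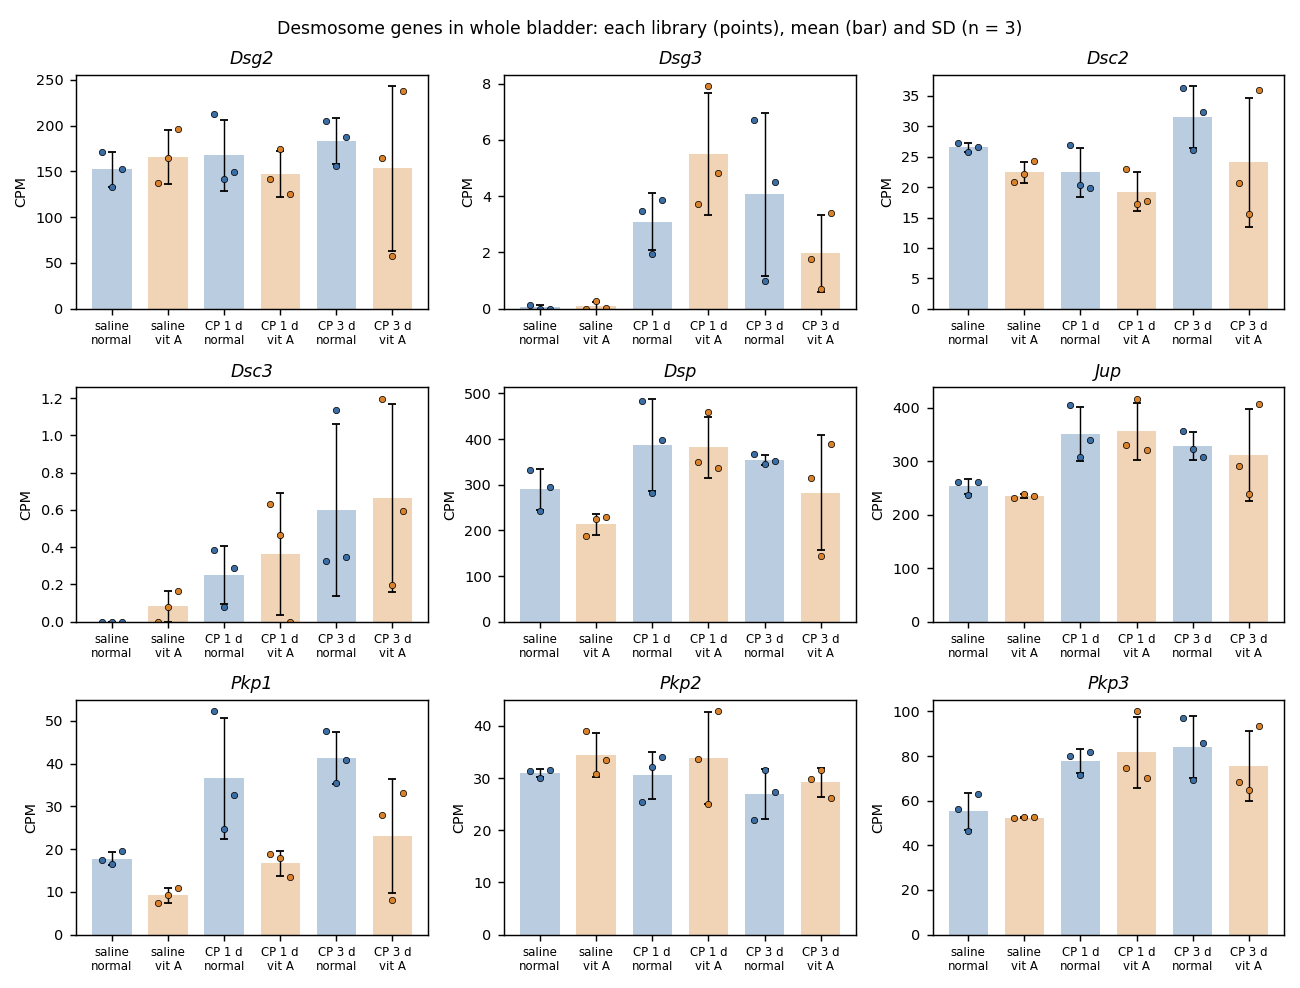
CPM of the 9 desmosome genes (y axis, from 0, 1 panel a gene) in the 6 groups (x axis), with normal diet in blue and vitamin A in orange; points are libraries, bars means and whiskers SD (n = 3). Dsg3 and Dsc3 are near 0 after saline, and Pkp1 is lower on vitamin A in each of the 3 conditions.

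Among the desmogleins, Dsg3 rose from near 0 in all 4 comparisons with saline while Dsg2 passed in none. Dsg3, the desmoglein of basal squamous layers, had 3, 0 and 0 counts in the saline libraries on the normal diet and 73, 48 and 94 counts at day 1. On the vitamin A diet it had 0, 7 and 1 counts after saline and 77, 154 and 97 at day 1. Every day 1 library lay above every saline library of its diet. Pooled over a group, the ratio of day 1 to saline was 75.8 on the normal diet (95% counting interval 25.6 to 371) and 57.3 on vitamin A (28.8 to 134); these intervals cover counting error only. The adjusted p was 0.00137 and 0.000396 in edgeR's test, and Dsg3 passed it without any one library in these 2 comparisons.

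At day 3 Dsg3 had 228, 32 and 131 counts on the normal diet and 43, 18 and 109 on vitamin A. The pooled ratio to saline was 101 on the normal diet (34.4 to 493; edgeR adjusted p = 0.00083) and 22.0 on vitamin A (10.9 to 51.8; edgeR adjusted p = 0.011), or 28.5 (14.1 to 67.2) without replicate 2. The libraries differed widely, at 6.70, 0.982 and 4.52 CPM on the normal diet. On vitamin A the call was lost without saline replicate 1 or 3 or day 3 replicate 3 (edgeR adjusted p = 0.0587, 0.0603 and 0.05002), and was kept without day 3 replicate 2 (0.00700). It was also lost when only the 2 groups compared were fitted (0.0867). Dsg3 was 1.97 ± 1.36 CPM at day 3 on vitamin A against 5.49 ± 2.17 at day 1 (SD, n = 3), a log2 difference of -1.48 ± 0.74 (SE) that did not pass (edgeR adjusted p = 0.283). Without replicate 2 it was -1.10 (edgeR adjusted p = 0.4605).

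Dsg2, the most widespread desmoglein, was at 171, 133 and 153 CPM after saline on the normal diet and 212, 141 and 149 CPM at day 1. On vitamin A it was at 137, 165 and 196 CPM after saline and 142, 174 and 125 CPM at day 1. The groups overlapped in both diets. The log2 change at day 1 was 0.14 (95% interval -0.51 to 0.78) and -0.19 (-0.84 to 0.45). At day 3 it was 0.21 and -0.14, and 0.23 on vitamin A without replicate 2.

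Of the desmocollins, Dsc3 appeared at low counts after injury and Dsc2 did not pass the test. Dsc3, the partner of Dsg3 in basal squamous layers, had 0 counts in all 3 saline libraries on the normal diet, 8, 2 and 7 at day 1, and 11, 37 and 10 at day 3. For a ratio, the saline group was set to the limit that 0 counts allow (3 counts over the group). Dsc3 then stood at 5.99 times saline at day 1 (edgeR adjusted p = 0.0667) and 15 times at day 3 (edgeR adjusted p = 0.0267). The 95% counting interval, taken from the 0 counts as observed, began at 4.37 and 11.8. The day 3 call was lost without any one of the 3 saline libraries or day 3 replicate 2 (edgeR adjusted p = 0.0773 to 0.0989). On vitamin A Dsc3 had 0, 2 and 4 counts after saline, 13, 9 and 0 at day 1, and 29, 5 and 19 at day 3, with pooled ratios to saline of 5.13 (2.02 to 15.5) and 9.15 (3.94 to 26.1) that did not pass (edgeR adjusted p = 0.272 and 0.21). Without day 3 replicate 2 the latter ratio was 11.99 (5.13 to 34.3; edgeR adjusted p = 0.163). Dsc2, the desmocollin of most epithelia, was at 26.6 ± 0.717 CPM after saline and 22.4 ± 3.97 at day 1 on the normal diet, and at 22.4 ± 1.77 and 19.3 ± 3.23 on vitamin A (SD, n = 3). Its log2 change was -0.25 in both diets (95% intervals -0.71 to 0.22), and 0.19 and 0.09 at day 3, or 0.29 on vitamin A without replicate 2.

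Plakoglobin and desmoplakin, the armadillo protein of the plaque and its link to keratin, rose together at day 1 on the vitamin A diet. Jup was at 232, 240 and 234 CPM after saline and 331, 417 and 320 CPM at day 1, a log2 change of 0.57 ± 0.17 (SE; edgeR adjusted p = 0.0205). Dsp was at 187, 225 and 228 CPM after saline and 350, 459 and 337 CPM at day 1, a log2 change of 0.82 ± 0.25 (edgeR adjusted p = 0.0292). Neither gene's groups overlapped. On the normal diet Jup was at 261, 237 and 262 CPM after saline and 406, 308 and 339 CPM at day 1, again without overlap, at a log2 change of 0.47 ± 0.17 (edgeR adjusted p = 0.0741). Dsp on that diet was at 332, 243 and 296 CPM after saline and 483, 281 and 398 CPM at day 1, which overlapped (log2 0.42 ± 0.25, edgeR adjusted p = 0.313).

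Both calls on vitamin A were lost when any of several libraries was left out. Without day 1 replicate 2 the log2 change was 0.42 for Jup and 0.64 for Dsp (edgeR adjusted p = 0.121 and 0.134). Both calls were also lost without any one of the 3 saline libraries, at edgeR adjusted p = 0.0565 to 0.0779 for Jup and 0.0695 to 0.104 for Dsp. The log2 changes then ran from 0.533 to 0.582 for Jup and from 0.743 to 0.853 for Dsp. The call of Dsp was lost without the filter on low counts too (edgeR adjusted p = 0.0630). At day 3 neither passed on either diet (log2 0.32 and 0.39 for Jup, 0.23 and 0.38 for Dsp). Without replicate 2 of the vitamin A group Dsp at day 3 was 0.67 above saline (edgeR adjusted p = 0.0456) and Jup 0.52 (0.0555).

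The 250 bases before the transcription start of these 2 genes are shown because they moved together and are the only members among the RefSeq promoters at hand, on the GRCm38.p6 build, which is older than the GRCm39 build of the counts. Each reads 5′ to 3′ on the strand of its gene, and capitals mark matches to CCCCNCCC on either strand, a box bound by KLF and Sp factors. Dsp lies on the plus strand at chr13:38151044-38151293 and Jup on the minus strand at chr11:100397791-100398040.
Dsp: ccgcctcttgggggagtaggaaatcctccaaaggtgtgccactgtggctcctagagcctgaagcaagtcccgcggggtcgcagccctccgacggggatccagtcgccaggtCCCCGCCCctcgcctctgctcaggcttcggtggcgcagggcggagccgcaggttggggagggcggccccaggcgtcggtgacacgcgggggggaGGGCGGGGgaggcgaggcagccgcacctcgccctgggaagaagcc
Jup: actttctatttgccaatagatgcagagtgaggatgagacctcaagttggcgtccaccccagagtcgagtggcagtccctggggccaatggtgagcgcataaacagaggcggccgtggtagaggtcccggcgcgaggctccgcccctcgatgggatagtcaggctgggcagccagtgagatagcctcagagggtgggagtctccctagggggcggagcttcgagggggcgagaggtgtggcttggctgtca
The Dsp window was 72.4% G and C and held 2 matches, with first bases 139 and 45 bases before the start; the Jup window was 62% G and C and held none. Of 32851 promoter windows of this length in the table, 30.8% held the box. Neither window held TGANTCA (AP-1, in 6.75% of windows), CAGGTG (an E-box, 17.2%), AACNGGTT (Grainyhead, 1.79%) or AGGTCA (a retinoid receptor half-site, 14.0%), searched on both strands. A match or its absence describes these letters only.

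Of the plakophilins, Pkp1 and Pkp3 each rose in 2 of the 4 comparisons with saline and Pkp2 in none. Pkp1, the plakophilin of stratified epithelia, was at 17.4, 16.5 and 19.5 CPM after saline on the normal diet, 52.2, 24.7 and 32.8 CPM at day 1, and 47.7, 35.4 and 40.8 CPM at day 3. On vitamin A it was at 7.44, 9.26 and 10.96 CPM after saline, 18.8, 18 and 13.4 CPM at day 1, and 28.1, 8.02 and 33.2 CPM at day 3. In both diets every day 1 library lay above saline, but neither change passed (log2 1.04 ± 0.34 and 0.84 ± 0.35, SE, edgeR adjusted p = 0.0553 and 0.103). With only the 2 groups compared both passed (edgeR adjusted p = 0.00973 and 0.0208). On the normal diet the change also passed in DESeq2 (DESeq2 adjusted p = 0.0233) and without day 1 replicate 2 (edgeR adjusted p = 0.0392). At day 3 it was 1.16 ± 0.34 above saline on the normal diet and 1.30 ± 0.35 on vitamin A (edgeR adjusted p = 0.0365 and 0.0302), and 1.69 on vitamin A without replicate 2 (0.000266).

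The day 3 calls of Pkp1 were lost when most of the libraries were left out in turn. On the normal diet the call was lost without any one saline library or day 3 replicate 1 or 3 (edgeR adjusted p = 0.0815 to 0.143), and on vitamin A without any one saline library or day 3 replicate 1 or 3 (0.0635 to 0.162). Both were lost without the filter on low counts (0.131 and 0.126), and that on vitamin A when only the 2 groups compared were fitted (0.193).

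Pkp3, a plakophilin found in simple and stratified epithelia, was at 52.1, 52.5 and 52.7 CPM after saline on vitamin A and 74.7, 100 and 70.3 CPM at day 1 (log2 0.61 ± 0.17, SE; edgeR adjusted p = 0.0156). On the normal diet it was at 56.3, 46.6 and 63.1 CPM after saline, 79.8, 71.7 and 81.6 CPM at day 1 (0.49 ± 0.17, edgeR adjusted p = 0.0696) and 97.0, 69.1 and 86.0 CPM at day 3 (0.55 ± 0.17, edgeR adjusted p = 0.0473). None of these groups overlapped with saline. The vitamin A call at day 1 was lost without day 1 replicate 2 (0.42, edgeR adjusted p = 0.114) or saline replicate 2 or 3 (0.0530 and 0.0594). The normal diet call at day 3 was lost without saline replicate 1, 2 or 3 or day 3 replicate 1 or 3 (0.0620 to 0.239) and with RLE scaling (0.0506). At day 3 on vitamin A it was 0.51 above saline (edgeR adjusted p = 0.0861), and 0.57 without replicate 2 (0.0610). Pkp2, the main plakophilin of heart, was at 31.0 ± 0.837 CPM after saline and 30.5 ± 4.56 at day 1 on the normal diet, and at 34.4 ± 4.198 and 33.9 ± 8.87 on vitamin A (SD, n = 3), with 95% intervals of the log2 change from -0.40 to 0.36 and from -0.44 to 0.32. At day 3 Pkp2 was at -0.26 and -0.25 against saline, and at -0.36 on vitamin A without replicate 2.

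Cell type markers moved with these changes at both days. Of all genes 7.26% rose and 4.49% fell at day 1 on the normal diet, and 10.2% and 9.05% on vitamin A, so 1 gene called in a list was near the background. The sum of 8 epithelial genes (Epcam, Cdh1, Cldn7, Krt8, Krt18, Krt19, Grhl2 and Esrp1) was 3647 to 3978 CPM after saline and 5578 to 6582 at day 1 on the normal diet, and 3649 to 3875 and 4962 to 9296 on vitamin A. Basal urothelium markers rose in 6 of 7 genes at day 1 in both diets, from 1957 to 2145 CPM summed to 4467 to 5333 on the normal diet and from 1422 to 1580 to 4794 to 6570 on vitamin A. Umbrella cell markers fell in 2 of 5 and 5 of 5, from 6722 to 7218 CPM to 4000 to 5384 and from 6332 to 6987 to 2169 to 3608. Fibroblast markers fell in 4 of 6 and 6 of 6 at day 1, from 6127 to 6806 CPM to 2042 to 3147 on the normal diet and from 6418 to 7069 to 1521 to 3577 on vitamin A. Squamous epithelium markers rose in 4 of 8 tested at day 1 on each diet, with the lowest adjusted p for Krt4 and Krt13 on the normal diet and Krt13 and Krt6a on vitamin A, from 239 to 349 CPM summed to 575 to 589 on the normal diet and from 330 to 389 to 550 to 1033 on vitamin A; among those of cornified skin, Flg was at 0 in the saline and day 1 normal diet groups and Krt1, Krt10, Lor and Krtdap did not pass. Smooth muscle markers had medians of -0.56 and -0.59 with 1 of 7 genes falling on each diet, from 24430 to 31200 CPM summed to 11840 to 20270 and from 21320 to 31350 to 12150 to 22900. Leukocyte markers rose in 1 of 8 genes on the normal diet, from 41.9 to 54.2 CPM summed to 74.3 to 82.2, and on vitamin A 3 rose and 1 fell, from 39.1 to 78.9 CPM to 56.5 to 105.4.

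At day 3 basal markers rose in 6 of 7 genes on the normal diet and 5 on vitamin A, to sums of 3767 to 4599 and 3359 to 4598 CPM. Of all genes 6.74% rose and 3.30% fell on the normal diet, and 4.32% and 1.67% on vitamin A (4.515% and 1.99% without replicate 2 of that group). Umbrella markers fell in 3 of 5 on each diet, to 4417 to 5243 and 3557 to 5421 CPM, and squamous markers rose in 3 of 8 on each. Endothelium markers, of which 1 of 8 rose at day 1 on each diet, rose in 6 and 3 of 8 at day 3, from 246.5 to 270.0 CPM summed to 424.3 to 512.4 on the normal diet and from 214 to 266.3 to 294.7 to 439.6 on vitamin A. The 8 epithelial genes summed to 4353 to 6164 and 3574 to 5854 CPM. Smooth muscle markers had medians of -0.83 and -0.29, and leukocyte markers rose in 2 and 1 of 8. Fibroblast markers rose in 1 of 6 on the normal diet and in 0 on vitamin A. Without replicate 2 of the vitamin A group the basal count was 6 and the endothelium count 2, the smooth muscle median was -0.73, and the umbrella, squamous, leukocyte and fibroblast counts were 3, 3, 1 and 0. In whole bladder RNA, more cells of a type and more RNA per cell cannot be told apart, and the part of these markers in the members' changes was not tested, other than by scaling to the epithelial genes.

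Scaled to the 8 epithelial genes in place of all genes, Jup, Dsp and Pkp3 were not called in any comparison with saline, Dsg3 was called in all 4, and Dsc2 fell at day 1 on both diets and Dsg2 on vitamin A. At day 1 on the normal diet Dsg3 rose (log2 5.61, edgeR adjusted p = 0.00152) against 2.54% of genes, and Dsc2 fell by 0.73 (edgeR adjusted p = 0.0385) against 14.6% of genes. On vitamin A Dsg3 rose (5.08, edgeR adjusted p = 0.00044) against 4.04% of genes, while Dsc2 and Dsg2 each fell by 0.78 (edgeR adjusted p = 0.0162 and 0.0346) against 31.9%. Jup changed by -0.01 and -0.02, Pkp3 by 0.03 and 0.02, and Dsp by -0.07 and 0.23 on this scale (normal, vitamin A). Dsc2 stood at 10.3 ± 0.212 per 100 reference counts after saline on the normal diet and 6.19 ± 0.229 at day 1, and at 8.82 ± 0.305 and 5.15 ± 1.76 on vitamin A. Dsg2 stood at 58.8 ± 5.23 and 46.1 ± 4.49 on the normal diet and at 65.1 ± 8.73 and 38.0 ± 4.58 on vitamin A (SD, n = 3). Pkp2, not called on this scale, stood at 12.0 ± 0.203 and 8.67 ± 2.31 on the normal diet and at 13.6 ± 2.13 and 9.12 ± 3.56 on vitamin A. No day 1 library reached a saline library of its diet for these 3 genes. The share of all genes that did the same was not taken.

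This scale moves the median of all genes to -0.46 and -0.56 at day 1, and the falls of Dsc2 and Dsg2 are to be read beside those medians. Members called down were 1 of 9 on the normal diet and 2 of 9 on vitamin A, against 14.6% and 31.9% of all genes. These counts were no higher than the background. The falls of Dsc2 on the normal diet were lost with Cdh1 alone or the 5 non-keratin genes as the reference (edgeR adjusted p = 0.123 and 0.0821) and without any one of the 6 libraries (0.0852 to 0.106). On vitamin A that of Dsc2 was lost without the keratins (0.0535) or without day 1 replicate 2 or 3 (0.101 and 0.0504). That of Dsg2 was lost without the keratins (0.119), without day 1 replicate 2 or 3 (0.114 and 0.0953) or saline replicate 2 or 3 (0.0738 and 0.106). At day 3 Dsg3 was the only member called on this scale, up by 6.09 on the normal diet (edgeR adjusted p = 0.000638) against 2.61% of genes and by 3.92 on vitamin A (edgeR adjusted p = 0.0144) against 1.86%. Without replicate 2 of the vitamin A group Dsg3 was up by 4.30 there (edgeR adjusted p = 0.00847) and Pkp1 was called too, at 1.43 (0.0013) against 1.03 with that library (0.101), where 1.82% of genes rose. The vitamin A call of Dsg3 was lost without saline replicate 1 or 3 or day 3 replicate 3 (0.0754, 0.0916 and 0.0600).

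**Figure D2:**
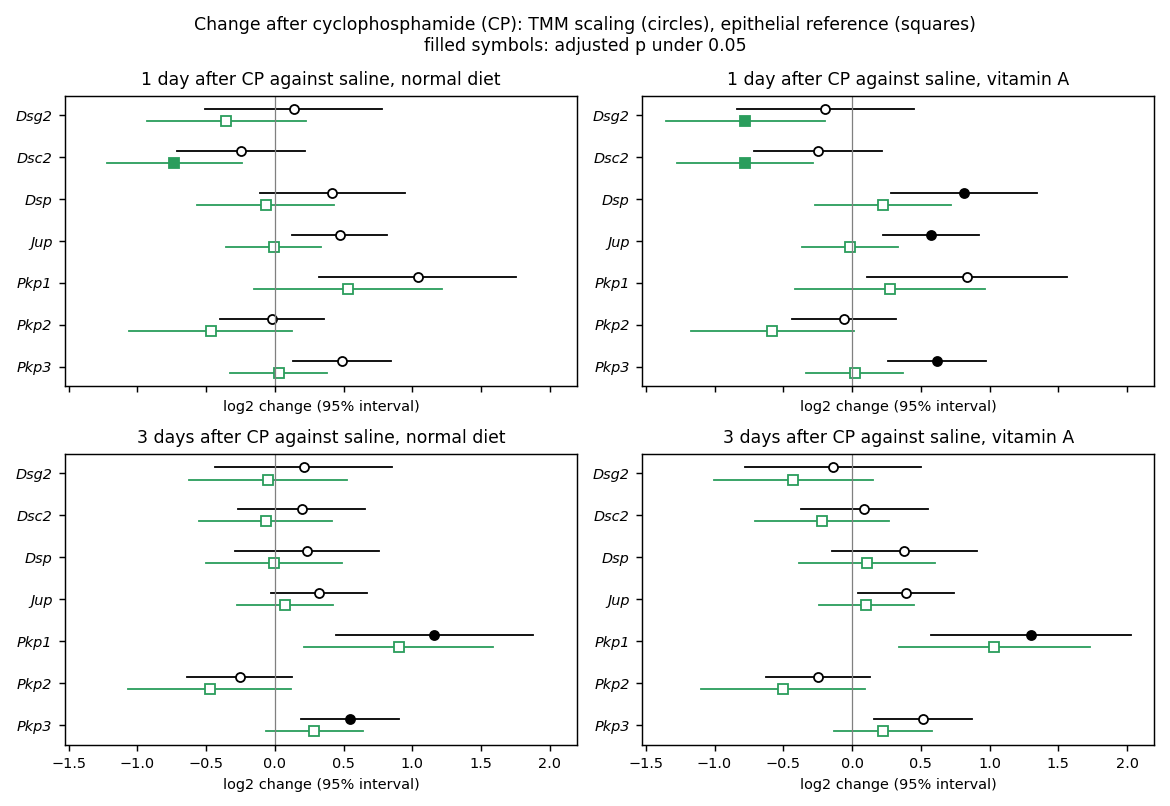
Log2 change over saline (x axis, with 95% intervals) of 7 members (y axis) at day 1 and day 3 on each diet, scaled to all genes (black circles) and to the 8 epithelial genes (green squares), filled where the adjusted p is under 0.05. At day 1 Jup, Dsp and Pkp3 lie right of 0 on the first scale and near 0 on the second, while Dsc2 lies at -0.73 and -0.78 on the second; Dsg3 and Dsc3, near 0 counts after saline, are left out.

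RNA levels were then compared within each library as the ratio of the squamous-type to the widespread paralogue. These are ratios in whole bladder RNA, and the part of cell type shares in them was not tested. The ratio was taken as log2 of CPM with 0.5 added, so its size depends on that 0.5 where Dsg3 or Dsc3 is near 0, and was tested by an exact two-sided permutation of libraries within each diet or condition, with Benjamini-Hochberg adjustment over the 12 tests. Dsg3 to Dsg2 was higher than after saline at day 1 and day 3, by 3.00 and 2.37 with 0.5 added (exact permutation adjusted p = 0.012 for both) and by 4.75 and 3.99 with 0.1 added (0.015 for both). The pooled count ratios of Dsg3 above use no added value. The day 3 difference was 2.30 without replicate 2 of the vitamin A group, with 0.5 added (exact permutation adjusted p = 0.010). As a share of the summed FPKM of the pair, Dsg3 went from 0.0397% to 2.53% at day 1 and 2.82% at day 3 on the normal diet, and from 0.0867% to 4.87% and 1.72% on vitamin A (1.725% without day 3 replicate 2). Dsg2 remained at least 95.1% of the pair in each group mean.

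Dsc3 to Dsc2 was higher by 0.77 at day 1 and 0.86 at day 3 (exact permutation adjusted p = 0.012 for both), and by 1.61 and 2.155 with 0.1 added in place of 0.5 (0.0257 and 0.015). In libraries with 0 Dsc3 counts this ratio holds only Dsc2 and the added value, so the test depends in part on these. Day 1 vitamin A replicate 3, with 0 Dsc3 counts, was at -5.18 with 0.5 added. Saline vitamin A replicates 2 and 3, with 2 and 4 counts, were lower, at -5.29 and -5.22. Leaving out replicate 2 of the vitamin A group, the day 3 difference was 0.89 (exact permutation adjusted p = 0.010). The day 3 difference lost its call without saline vitamin A replicate 1 or 2 (exact permutation adjusted p = 0.060 and 0.050). Dsc3 remained at most 4.70% of the summed FPKM of the pair in any library. Pkp1 to Pkp2 was higher by 0.93 at day 1 and 1.35 at day 3 (exact permutation adjusted p = 0.020 and 0.0257), and by 1.69 at day 3 without replicate 2 of the vitamin A group (0.010). Without saline vitamin A replicate 1 both lost their call (0.060 each, at 0.82 and 1.23), and so did day 3 without saline vitamin A replicate 2 (0.0514). Pkp1 made up 26.2% of the summed FPKM of Pkp1 and Pkp2 after saline on the normal diet, 41.9% at day 1 and 48.8% at day 3, and 14.4%, 24.2% and 31.5% on vitamin A (40.45% at day 3 without replicate 2). Between day 1 and day 3 the 3 ratios differed by -0.63, 0.10 and 0.42 (exact permutation adjusted p = 0.167, 0.775 and 0.420), and without that library by -0.71, 0.13 and 0.76 (0.150, 0.745 and 0.105).

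**Figure D3:**
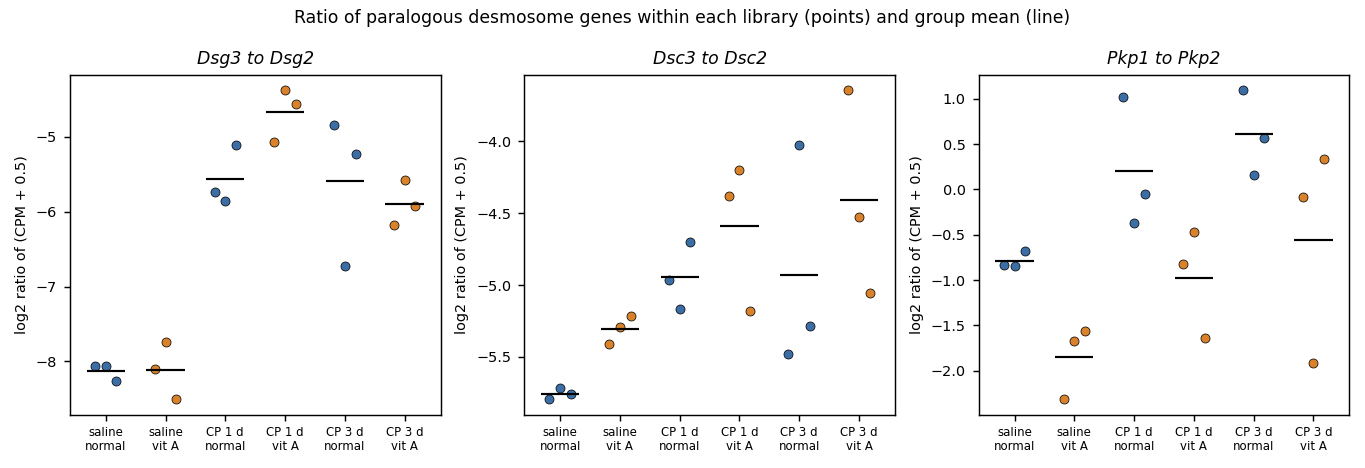
Log2 ratio of Dsg3 to Dsg2, Dsc3 to Dsc2 and Pkp1 to Pkp2 (y axis, CPM with 0.5 added) in each library (points) of the 6 groups (x axis), with group means as lines; normal diet in blue, vitamin A in orange. All injured libraries lie above all saline libraries of their diet for Dsg3 to Dsg2, and Pkp1 to Pkp2 is lower on vitamin A in each condition.

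From day 1 to day 3 no member was called on either diet in edgeR's test, where 1.44% of all genes were called on the normal diet and 4.24% on vitamin A, and none was called by DESeq2. None had an unadjusted p under 0.05, against 11.3% and 19.3% of all genes. On the normal diet the log2 difference of day 3 from day 1 was 0.07 for Dsg2, 0.34 for Dsg3, 0.44 for Dsc2 and 1.197 for Dsc3, -0.15 for Jup and -0.18 for Dsp, and 0.12, -0.235 and 0.06 for Pkp1, Pkp2 and Pkp3. On vitamin A it was 0.05 for Dsg2, 0.34 for Dsc2 and 0.85 for Dsc3, -0.18 for Jup and -0.44 for Dsp, and 0.46, -0.19 and -0.10 for Pkp1, Pkp2 and Pkp3, with Dsg3 given above. Without replicate 2 of the vitamin A group at day 3 these 8 were 0.43, 0.54, 1.26, -0.05, -0.14, 0.85, -0.30 and -0.04, and Dsc2 and Pkp1 had an unadjusted p under 0.05, against 20.6% of all genes, with none called.

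On the scale of the 8 epithelial genes no member was called between these days either, against 0.688% and 4.50% of all genes. On the normal diet 1 of 9 had an unadjusted p under 0.05 (Dsc2, 0.66) against 10.3% of all genes, and on vitamin A 2 of 9 (Dsc2, 0.56, and Pkp1, 0.76) against 22.7%, so both counts were near the background. Without replicate 2 of the vitamin A group Dsg2 and Pkp1 were 0.73 and 1.16 higher at day 3 on that scale (edgeR adjusted p = 0.0283 and 0.0187), where 3.003% of genes were called. Fibroblast markers rose between these days in 4 of 6 genes on the normal diet and in 6 of 6 on vitamin A, with or without that library. Those calls are on the scale of all genes, where 1.22% and 2.55% of all genes rose (2.24% on vitamin A without that library).

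The second question was whether vitamin A in the diet altered the desmosome genes, and Pkp1 was the member with the most uniform difference. Its mean was 17.8 ± 1.498 CPM on the normal diet and 9.22 ± 1.76 on vitamin A after saline, 36.6 ± 14.2 and 16.7 ± 2.92 at day 1, and 41.3 ± 6.18 and 23.1 ± 13.3 at day 3 (SD, n = 3). In each of the 3 conditions every vitamin A library lay below every normal diet library. The log2 difference was -0.94, -1.14 and -0.80 (95% intervals -1.67 to -0.21, -1.86 to -0.42 and -1.505 to -0.09). None passed (edgeR adjusted p = 1, 0.156 and 0.994), nor did any other member: 0 of 9 were called in each condition, where 0.0104%, 0.466% and 0.00518% of all genes were called, and 1 of 9, Pkp1, had an unadjusted p under 0.05 each time, against 3.78%, 11.1% and 3.76% of all genes, so at day 1 that count was no higher than the background. DESeq2 called Pkp1 at day 1 (-1.12, DESeq2 adjusted p = 0.0428), and a fit of only the saline libraries called it there (-0.94, edgeR adjusted p = 0.0436). Without day 3 replicate 2 on vitamin A the day 3 difference was -0.41, and 0 of 9 members had an unadjusted p under 0.05, against 3.39% of all genes. Basal urothelium markers summed to 1422 to 1580 CPM on vitamin A and 1957 to 2145 on the normal diet after saline, to 4794 to 6570 and 4467 to 5333 at day 1, and to 3359 to 4598 and 3767 to 4599 at day 3, with 0 of 7 called for diet in each condition. The part of these markers in the difference of Pkp1 was not tested.

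The authors' deposited table of the saline comparison lists Pkp1 at -0.94 (vitamin A over normal, adjusted p = 0.000306), and that of day 1 lists it at -1.15 (adjusted p = 0.00294). For day 3 the authors' deposited table gives -0.80 with an adjusted p of 0.999. The authors' deposited table also lists Dsp after saline at -0.43 (adjusted p = 0.0262), where the fit here gave -0.43 ± 0.25 (SE; edgeR adjusted p = 1). Dsp was at 332, 243 and 296 CPM on the normal diet and 187, 225 and 228 CPM on vitamin A after saline, without overlap.

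Averaged over the 3 conditions, a comparison chosen after these values were seen and so no independent support for them, Pkp1 was -0.96 ± 0.20 (SE; 95% interval -1.37 to -0.55) on vitamin A and did not pass (edgeR adjusted p = 0.0881), with 0 of 9 members called against 0.0776% of all genes and 1 of 9 (Pkp1) at an unadjusted p under 0.05 against 7.49%. Without day 3 vitamin A replicate 2 it was -0.83 and passed (edgeR adjusted p = 0.013), as it did without day 3 vitamin A replicate 3 (-1.08, edgeR adjusted p = 0.0288) and in DESeq2 (-0.96, DESeq2 adjusted p = 0.00122). The ratio of Pkp1 to Pkp2 was lower by -1.14 on vitamin A (exact permutation adjusted p = 0.009) and by -0.91 without day 3 vitamin A replicate 2 (0.010).

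Scaled to the 8 epithelial genes, Pkp1 differed by -0.93, -1.19 and -0.79 and by -0.97 on average (edgeR adjusted p = 1, 0.203, 1 and 0.0772). On that scale 0 of 9 members were called in each condition or on average, against 0.0207%, 0.166%, 0% and 0.0466% of all genes. Pkp1 had an unadjusted p under 0.05 in each condition, against 2.43%, 7.47% and 1.82% of all genes, and Pkp1 and Dsc2 (-0.29) on average, against 4.28%. Without day 3 vitamin A replicate 2 Pkp1 differed by -0.40 at day 3. The average passed without day 3 vitamin A replicate 2 (-0.84, edgeR adjusted p = 0.00997) or replicate 1 (-1.09, 0.0151), without day 1 vitamin A replicate 1 (-1.05, 0.0214), and with Cdh1 alone or the non-keratin genes as the reference (0.0177 and 0.0229).

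**Figure D4:**
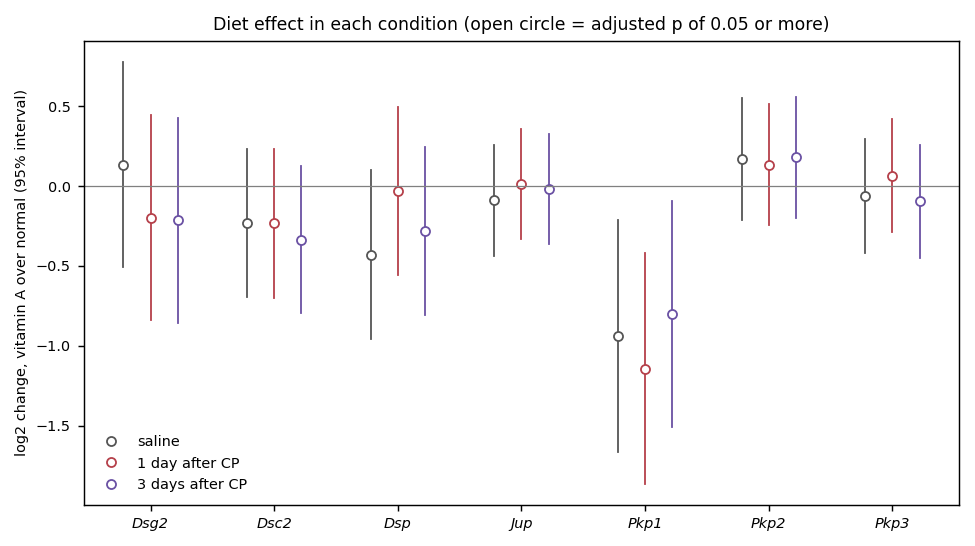
Log2 change on vitamin A over the normal diet (y axis, with 95% intervals) of 7 members (x axis) after saline (grey), at day 1 (red) and at day 3 (purple); all circles are open, since no adjusted p is under 0.05. Pkp1 lies at -0.94, -1.14 and -0.80, and the interval of each other member spans 0 in each condition.

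No member other than Pkp1 was called for diet by edgeR or DESeq2 here, while the authors' deposited table lists Dsp after saline, as given above. Dsp differed by -0.43, -0.03 and -0.28 after saline, at day 1 and at day 3, and by 0.01 at day 3 without replicate 2 of the vitamin A group. Jup differed by -0.09, 0.01 and -0.02, with 95% intervals within -0.44 and 0.36, and by 0.11 at day 3 without that library. Of the plakophilins, Pkp3 differed by -0.06, 0.06 and -0.09 (-0.03 without it) and Pkp2 by 0.17, 0.13 and 0.18 (0.07 without it).

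Among the cadherins, Dsg2 differed by 0.13, -0.20 and -0.21 in the same order, and by 0.16 at day 3 without that library. Dsc2 differed by -0.23, -0.23 and -0.34 (-0.13 without it), with saline libraries at 20.8, 22.1 and 24.3 CPM on vitamin A and 27.3, 25.8 and 26.6 on the normal diet. Dsg3, at 8 and 3 counts after saline, differed by 0.82 at day 1 (95% interval -0.69 to 2.34) and -0.995 at day 3 (-2.52 to 0.53; -0.62 without that library), and its ratio to Dsg2 by 0.20 over the conditions (exact permutation adjusted p = 0.482), or 0.15 without it (0.672). Dsc3, at 6 and 0 counts after saline, differed by 0.53 at day 1 and 0.18 at day 3 (0.59 without that library). Dsc3 to Dsc2 differed by 0.44 (exact permutation adjusted p = 0.0926), by 0.46 without that library (0.140), and by 0.59 without day 3 normal diet replicate 2 (0.0171) or 0.54 without day 1 vitamin A replicate 3 (0.0337).

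Whether the response to injury differed between diets was tested as an interaction. No member was called at day 1 against saline, at day 3 against saline, or between day 3 and day 1, and none had an unadjusted p under 0.05, against 7.79%, 2.40% and 8.96% of all genes. Of all genes 0% were called by edgeR in each of the 3 interactions, and DESeq2 called 112, 0 and 78, with 0 members among them. At day 1 the interaction was 0.40 for Dsp (95% interval -0.35 to 1.14), 0.10 for Jup (-0.39 to 0.59), 0.12 for Pkp3 (-0.38 to 0.63), -0.20 for Pkp1 (-1.22 to 0.81), -0.33 for Dsg2, -0.04 for Pkp2 and -0.0024 for Dsc2. Dsp, Jup and Pkp3, which passed at day 1 on vitamin A, were thus not shown to respond differently on the normal diet. For Dsg3 and Dsc3, near 0 counts after saline, only the test is given (edgeR adjusted p = 0.985 and 0.765).

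At day 3 the interaction with saline was -0.35 for Dsg2, -0.11 for Dsc2, 0.15 for Dsp, 0.07 for Jup, and 0.14, 0.01 and -0.03 for Pkp1, Pkp2 and Pkp3. Leaving out replicate 2 of the vitamin A group, these 7 were 0.02, 0.10, 0.44, 0.20, 0.53, -0.10 and 0.03, and for Dsg3 and Dsc3 the edgeR adjusted p was 0.9998 with that library and 0.9983 without it. From day 1 to day 3 the diet effect changed by -0.02 for Dsg2, -0.10 for Dsc2, -0.35 for Dsc3, -0.25 for Dsp, -0.03 for Jup, and 0.34, 0.04 and -0.16 for Pkp1, Pkp2 and Pkp3. Without that library these 8 were 0.36, 0.10, 0.06, 0.04, 0.10, 0.73, -0.06 and -0.09, and 1 member, Pkp1, had an unadjusted p under 0.05 against 8.27% of all genes. For Dsg3 the change was -1.82 (-3.97 to 0.33; edgeR adjusted p = 0.635), and -1.44 without that library (0.754).

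Few other genes of the desmosome were called. Of 10 further desmosome and plaque genes, Dsg1a, Dsg1b and Dsc1 had 0 counts in all 18 libraries and Dsg1c had 8 in all, so the cadherins of the upper layers of skin were at or near 0. The tetraspan protein Perp and the plaque proteins Pkp4, Ppl and Evpl were well detected, with means of 232, 23.8, 25.6 and 25.9 FPKM after saline on the normal diet. None of the 6 tested members of this list rose in the 4 comparisons with saline, against 4.32% to 10.2% of all genes. In these comparisons 1 fell, Dsg4 at day 1 on vitamin A (edgeR adjusted p = 0.039), from only 84 counts over all libraries, against 9.05% of all genes there. Both counts were near the background.

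The junctions beside the desmosome and the keratins it anchors were counted in the same way. Of all genes 7.26% rose and 4.49% fell at day 1 on the normal diet, and 10.2% and 9.05% on vitamin A. At day 3 6.74% and 4.32% rose (4.515% on vitamin A without day 3 replicate 2). Of 11 adherens junction genes, 0 rose and 1 fell at day 1 on the normal diet and 2 rose and 1 fell on vitamin A, where E-cadherin (Cdh1) was 0.72 higher (edgeR adjusted p = 0.012). The adherens junction counts were near the background. Of 9 hemidesmosome genes, which anchor basal cells to the matrix, 3 rose on the normal diet and 7 on vitamin A, with Col17a1 at 2.25 and 2.98 (edgeR adjusted p = 0.0003 and 1.2e-05), and 2 rose on each diet at day 3 (5 on vitamin A without day 3 replicate 2). Of 12 keratins tested, 7 rose and 1 fell on the normal diet and 9 rose and 1 fell on vitamin A at day 1; Krt15 of basal cells was higher by 1.86 and 1.96, and Krt20 of umbrella cells fell by 0.81 and 0.89. The median log2 change at day 1 on the normal and the vitamin A diet was 0.13 and 0.23 for the adherens junction list, 0.56 and 1.22 for the hemidesmosome list and 1.09 and 1.80 for the keratins, against 0.47 and 0.61 for the 9 members. Of 15 transcription factors known to act on epithelial junction genes, 1 rose at day 1 on each diet, Elf3 (1.03 and 0.89), and 1 fell on the normal diet, Klf4 by 0.74. These counts too were near the background.

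Each member was last compared with all other genes of mean log2 CPM of at least 2. The measure was the root mean square difference of their centred means in the 6 groups, with 0.5 added to CPM. For Dsg3, near 0 after saline, the range and the nearest genes depend on that 0.5. Nearest to Dsg3 were Ercc6l, Pole and Brca1 at 0.0721, 0.149 and 0.183, with a median over 12806 genes of 1.31 and a range of 3.40 for Dsg3 itself. Nearest to Pkp1 were Adgrf4, Ank and Gsdma at 0.223, 0.242 and 0.268, with a median of 0.701. Nearest to Dsp were Nova2, Casp8ap2 and Lin54, and nearest to Jup were Dnaaf2, Arpc2 and Eif2s1. Without replicate 2 of the vitamin A group at day 3 the nearest were Ercc6l, Rad51ap1 and Pole for Dsg3, Adgrf4, Ank and Cd109 for Pkp1, St8sia6, Lypd3 and Afmid for Dsp, and Fam216a, Ak6 and Eif2s1 for Jup. These rankings rest on 6 group means and are a description only.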

How the data were processed

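Per the submitters' processing notes, HISAT2 2.0.5, featureCounts 1.5.0-p3, DESeq2 1.20.0 and the GRCm39 build were used, with settings not given in the sources used here. Deposited by the authors were counts and FPKM per gene for all 18 libraries, and tables of log2 fold changes with p-values for the diet comparisons, in which 54 further per-sample columns were not used. Features without a symbol (0.474% to 0.810% of counts) were left out. Counts were fitted with edgeR 4.0.16 (TMM, filterByExpr, robust quasi-likelihood), with 1 mean per group over the 18 libraries and p-values adjusted over 19323 genes at a threshold of 0.05. A second fit set library sizes by the geometric mean of 8 epithelial genes. CPM uses named counts without TMM. The procedure was tested on simulated data. Members, lists and comparisons were chosen with earlier results of these data known. On the scale of all genes, all 9 members are given in each of the comparisons fixed in the design. Relative to the epithelial genes, the called members are given with only some of the others. Of each other list at most 2 called genes each way with the lowest adjusted p are given, plus those a result turns on. Alternatives were DESeq2 1.42.0, RLE scaling, no filter, unnamed features kept, only the groups compared, a replicate block, other references and pseudocounts, and each library left out. Sequences are from RefSeq, where 2 of 9 members matched.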

Additional observations from a re-analysis of the deposited data

How the results depend on the processing

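No sign of a called value turned under any alternative run. Under DESeq2 the count of members called went from 1 to 4 at day 1 on the normal diet, with Dsc3, Jup and Pkp1 beside Dsg3. The count went from 0 to 1 for diet at day 1 and for diet on average. With only the groups compared it was 4 at day 1 on the normal diet, with Jup, Pkp1 and Pkp3 beside Dsg3. It was 1 for diet after saline, and 0, from 2, at day 3 on vitamin A, where it was 1 without the filter on low counts. That fit also called Jup at day 3 on the normal diet (edgeR adjusted p = 0.0361). Pkp3 was called at day 3 on vitamin A without day 3 replicate 1 (edgeR adjusted p = 0.0467). Over libraries left out in turn the counts ran from 1 to 2 (day 1, normal), 1 to 4 (day 1, vitamin A), 1 to 3 (day 3, normal), 0 to 3 (day 3, vitamin A) and 0 to 1 (average diet). Relative to the epithelial genes the counts were 2, 3, 1 and 1 in the same 4 comparisons with saline: with Cdh1 alone 1 at day 1 and 2 at day 3 on the normal diet, and 1 for average diet; without the keratins 1, 1, 2 and 2, and 1 for average diet; with libraries left out 1 to 1 (day 1, normal), 1 to 3 (day 1, vitamin A), 0 to 2 (day 3, vitamin A), 0 to 2 (day 3 against day 1, vitamin A) and 0 to 1 (average diet).

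The labels give each group replicates 1 to 3, and libraries of the same number were no more alike than others. Over 45 pairs of the same number the correlation of deviations ran from -0.376 to 0.401 with a median of -0.00275. Over 90 pairs of other numbers it ran from -0.3965 to 0.452 with a median of 0.0131. Whether libraries of a number shared a cage or batch was not tested. With the replicate block Pkp3 lost its call at day 3 on the normal diet (edgeR adjusted p = 0.0602), and 1 member (Pkp1) was called for average diet relative to the epithelial genes. Under the block the 6 paralogue ratios over saline were tested by flipping the signs of differences between libraries of the same replicate number. They kept their values (3.00 and 2.37, 0.768 and 0.864, 0.931 and 1.35). The exact sign-flip adjusted p was 0.075, 0.075 and 0.107 for the 3 pairs. Fewer arrangements are left under the block, which limits how low these p-values can be. For Pkp1 to Pkp2 some differences also went down. Day 1 vitamin A replicate 3 was at -1.641 against -1.567 for saline replicate 3. Day 3 vitamin A replicate 2 was at -1.915 against -1.678 for saline replicate 2. With libraries left out the ratio changes ran from 0.638 to 1.03 (Dsc3 to Dsc2, day 3), -0.130 to 0.257 (day 3 against day 1), 0.315 to 0.593 (diet), 0.724 to 1.10 (Pkp1 to Pkp2, day 1) and 1.13 to 1.69 (day 3). The cause of these differences was not tested.

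Over all genes DESeq2 called 14, 487 and 9 for diet after saline, at day 1 and at day 3 where edgeR called 2, 90 and 1, and 649 and 1618 from day 1 to day 3 where edgeR called 278 and 819. With only the groups compared edgeR called 4463 and 3710 at day 1 and day 3 on the normal diet in place of 2271 and 1940, and 17 and 499 on vitamin A for day 3 against day 1 and against saline in place of 819 and 1156. Counts of 0 to 58 per group limit Dsc3, and 3 to 8 in the saline groups limit Dsg3.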
